A study of Mus musculus with 2 samples.

Results

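The Dach, Eya and Six-family genes encode the later members of a transcriptional network that is used again and again in the building of muscle, kidney, ear and skeleton. Followed here were 9 of them, chosen by family name and not by their values: Dach1 and Dach2, Eya1 to Eya4, and Six2, Six4 and Six5, of 28365 genes listed in the tables. Each was described in 6 classes of bone cells and in 2 libraries, by the unique molecular identifiers (UMIs) counted for it.

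The data are single-cell RNA sequencing (scRNA-seq) of non-haematopoietic cells of femur and tibia from C57BL/6 mice at postnatal day 30, with 1 library for each of 2 groups. The Control library came from mice labelled Dach1OE +/f, which carry a Dach1 transgene without a Cre, and the Dach1OE library from mice labelled Apj CreERT2 - Dach1OE +/f. In the latter, a tamoxifen-inducible Cre driven by Aplnr (Apj), a receptor gene of capillary endothelium, releases the transgene once tamoxifen is given, and both groups received tamoxifen. Per the methods the transgene lies in the Rosa26 locus, the controls were Cre-negative littermates, tamoxifen was given shortly after birth, the breeding included the R26-mT/mG reporter, and each library pooled 2 mice, which were of both sexes by the labels. The bones were digested with collagenase and crushed, and cells of the blood lineages and those with CD45 or CD117 were depleted. The gene-level counts do not separate endogenous Dach1 from the transgene.

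The filters kept 26466 of 28720 Control cells and 29317 of 32028 Dach1OE cells, with a median of 3793.5 and 4055 UMIs per cell. Cells were gated into classes by marker genes. The Control library held 9509 endothelial cells (ECs), 5559 stromal cells, 4081 chondrocytes, 1152 mural cells, 602 fibroblasts and 3325 haematopoietic cells that had escaped depletion, and the Dach1OE library 9867, 4382, 5715, 2283, 498 and 3744. In each of these classes and libraries, between 94.5% and 99.8% of the cells took the same class from unsupervised clusters. The libraries shared 879 cell indices. With 1 library per group there is no replicate and no test, all intervals are 95% intervals that cover counting error only, and each difference is between these 2 libraries.

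SIX-family proteins are homeodomain factors that bind DNA. EYA proteins have no DNA-binding domain of their own: they are carried to chromatin by SIX-family proteins, act there as coactivators and are also protein phosphatases. DACH proteins are related to the SKI and SNO corepressors, and work with SIX-family and EYA proteins or without them. In skeletal tissues the Six-family and Eya genes are best known from limb tendon, muscle and connective tissue, whereas DACH1 is a regulator of arterial growth in the coronary vessels.

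The sequences around the gene starts show how unlike the members are at their own promoters. RefSeq windows of 300 bases on GRCm38.p6 were found for 7 of the 9 members, with 10 windows in all. Those of Six2, the member with the narrowest distribution over the classes, of Eya3, found in every class, and of endogenous Dach1 are given 5′ to 3′ on the strand of the gene, with each CpG dinucleotide in capitals. They lie at chr17:85688205-85688504 (minus strand), chr4:132638796-132639095 (plus strand) and chr14:98169716-98170015 (minus strand).
Six2: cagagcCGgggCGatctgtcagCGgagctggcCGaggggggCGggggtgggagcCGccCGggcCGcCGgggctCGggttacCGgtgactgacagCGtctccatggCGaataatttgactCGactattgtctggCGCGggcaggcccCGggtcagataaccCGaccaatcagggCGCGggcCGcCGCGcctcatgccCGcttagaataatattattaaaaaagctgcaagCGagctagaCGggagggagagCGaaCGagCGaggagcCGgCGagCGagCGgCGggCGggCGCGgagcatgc
Eya3: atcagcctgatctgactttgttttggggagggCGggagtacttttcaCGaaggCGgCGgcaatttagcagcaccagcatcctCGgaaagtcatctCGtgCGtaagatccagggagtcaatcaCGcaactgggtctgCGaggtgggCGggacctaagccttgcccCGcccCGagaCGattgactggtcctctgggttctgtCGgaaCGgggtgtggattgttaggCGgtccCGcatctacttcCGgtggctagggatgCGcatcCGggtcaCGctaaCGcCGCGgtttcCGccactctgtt
Dach1: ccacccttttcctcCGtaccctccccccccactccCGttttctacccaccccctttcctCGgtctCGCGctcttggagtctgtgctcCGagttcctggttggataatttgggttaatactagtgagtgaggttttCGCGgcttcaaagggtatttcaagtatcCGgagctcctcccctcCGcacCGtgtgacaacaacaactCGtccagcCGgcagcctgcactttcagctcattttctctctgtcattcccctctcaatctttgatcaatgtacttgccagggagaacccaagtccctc

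The Six2 window holds 37 CpG dinucleotides, that of Eya3 25 and that of Dach1 13, against a median of 7 over the 32851 RefSeq windows of this length. Of all windows, 5.58% hold as many CpGs as Six2, 18.4% as many as Eya3 and 37.9% as many as Dach1. Thus the number of CpGs did not run in the order of breadth: the promoter richest in CpG belongs to the member most restricted to a class. The core of the MEF3 element, TCAGGTT, which SIX-family proteins are known to bind, was searched on both strands and is in 1 of the 10 member windows, a window of Six4, and in 4.07% of all windows. A match of these letters is a description of the sequence and not a bound site.

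Levels are given as counts-per-million values (CPM), the UMIs of a gene scaled to the sum of all UMIs of the class in that library. They are compared between classes for 1 gene at a time and never between genes. In all kept cells, the members had from 407 (Six2) to 4038 UMIs (Eya3) in Control and from 273 (Six2) to 8031 UMIs (Dach1) in Dach1OE. The spread over the classes was wide for Six2 and Six4 and narrow for Eya3 and Six5. In Control, the highest class exceeded the lowest by 186-fold for Six2, 68.8-fold for Six4, 18.7-fold for Eya4, 13.2-fold for Eya2, 12.6-fold for Dach1 and 10.3-fold for Eya1, but by 3.41-fold for Six5, 2.78-fold for Eya3 and 2.47-fold for Dach2. Some lowest classes held few UMIs, so these folds are rough. They held 4 for Dach1 (fibroblasts), 4 for Six4 (haematopoietic cells), 5 for Dach2 (mural cells) and 9 for Six2 (ECs).

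**Figure D1:**
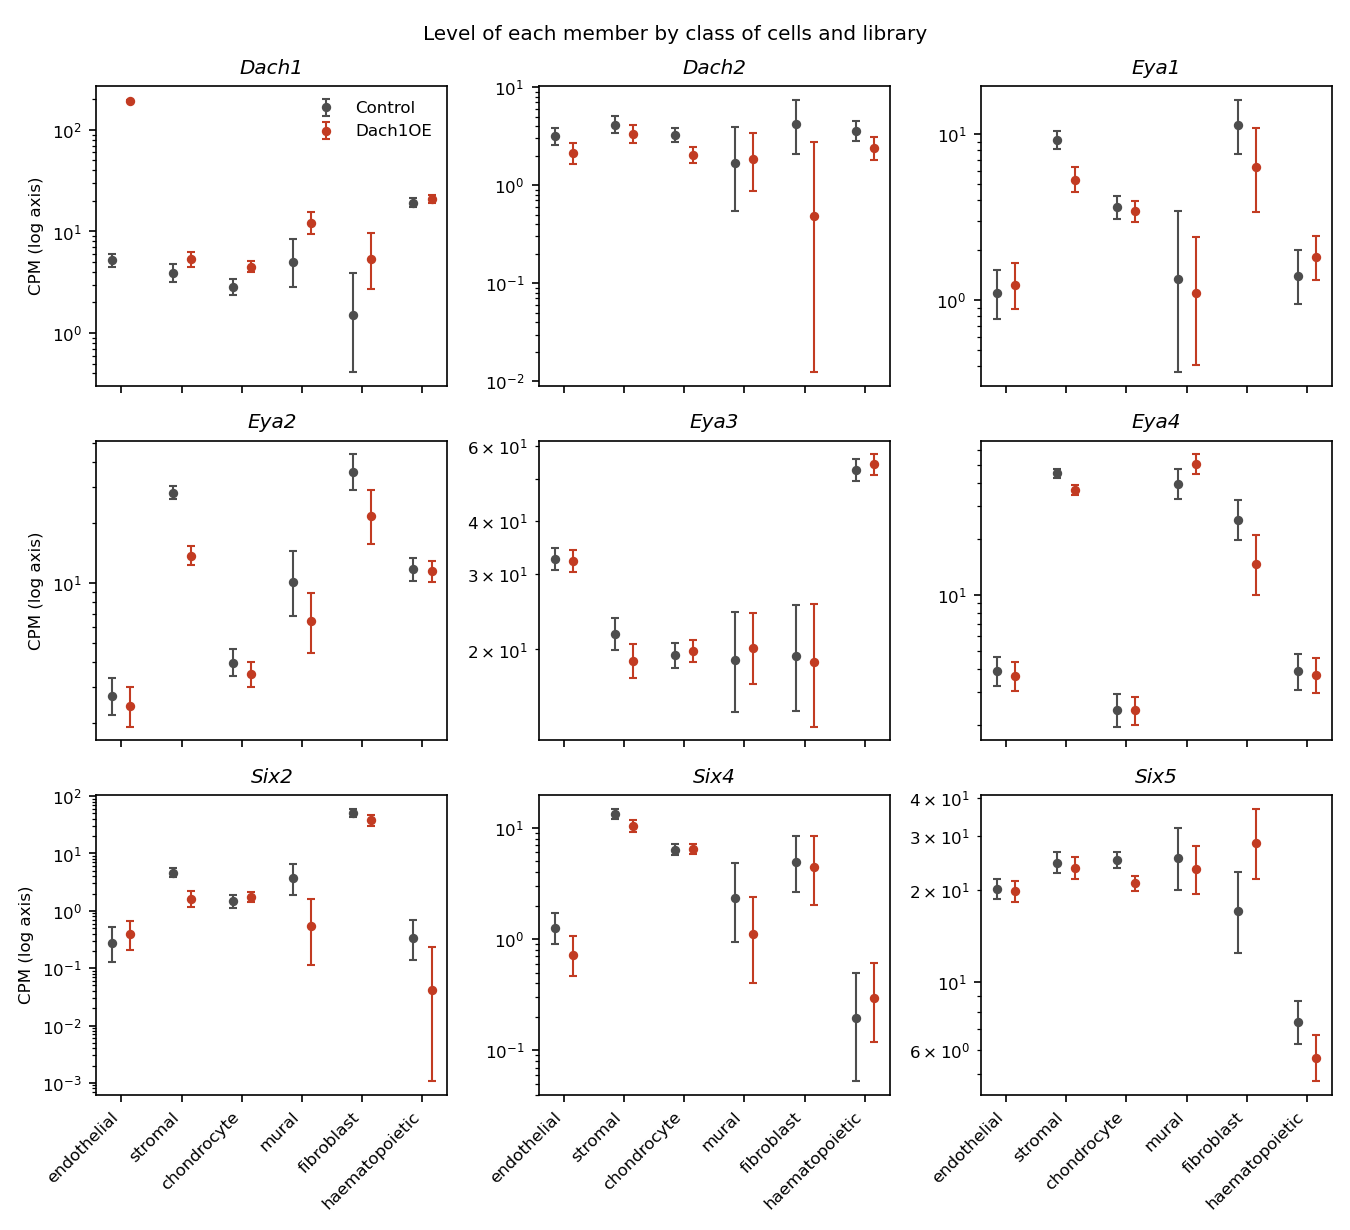
Level of each of the 9 members (CPM, log axis) in the 6 classes of cells, with Control in grey and Dach1OE in red, and bars giving the 95% Poisson interval of 1 library. Dach1 passes 100 CPM in Dach1OE ECs alone, Six2 is highest in fibroblasts in both libraries, and Eya3 and Six5 stay within narrow ranges.

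Dach1, the gene that was overexpressed, spans 383 kb at chr14:97786853-98169765 on the minus strand. In Control ECs it had 170 UMIs or 5.2 CPM (4.45 to 6.04), and in Dach1OE ECs 6436 UMIs or 194 CPM (189 to 199). The log2 ratio of Dach1OE over Control was 5.22 (5.0 to 5.45), a 37.3-fold difference. It had 170 UMIs in 152 Control cells, so the transcript was sparse in Control.

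Dach1 UMIs were seen in part of the ECs. Of Dach1OE ECs, 37.8% had a Dach1 UMI, against 1.60% of Control ECs, and 17.1% (16.4 to 17.9) against 0.454% (0.327 to 0.613) when each cell was thinned to 1000 UMIs. Thinning left out 336 Dach1OE and 250 Control ECs with fewer UMIs. In chondrocytes, for comparison, the shares at that depth were 0.561% in Dach1OE and 0.245% in Control. In Dach1OE, 21.5% of ECs had 1 Dach1 UMI, 9.53% had 2, 6.24% had 3 to 5 and 0.497% had 6 or more, with 11 in the highest cell. In Control the highest cell had 4. The median depth of Dach1OE ECs was 2474 UMIs where no Dach1 was seen and 4317 where 3 to 5 were, so the share of cells without a UMI is not a share of cells without the transcript.

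**Figure D2:**
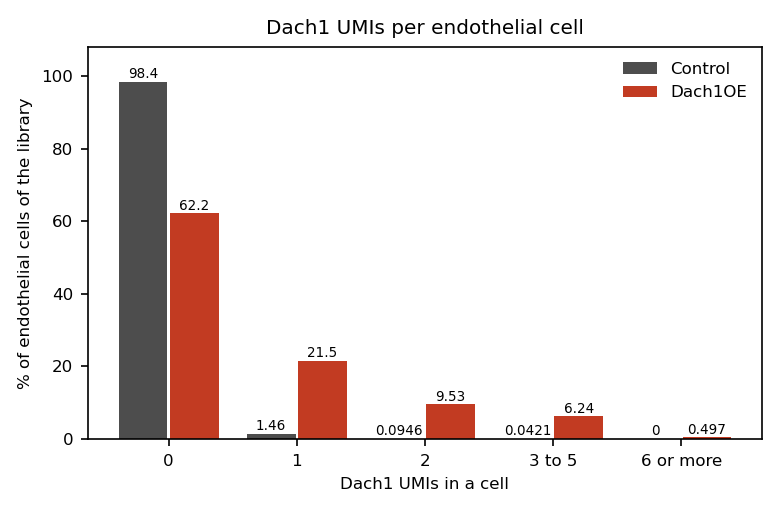
Share of the ECs of each library (%) by the number of Dach1 UMIs in the cell, with the values printed above the bars. Of Dach1OE ECs 62.2% had none, against 98.4% in Control.

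Dach1 was high in each endothelial type that could be told apart. In Dach1OE it was 193 CPM in sinusoidal, 189 CPM in metaphyseal and 248 CPM in arterial ECs, against 3.87, 7.46 and 26.2 CPM in Control. The log2 ratios were 5.64 (5.29 to 6.00), 4.66 (4.27 to 5.08) and 3.24 (2.11 to 4.70), and the arterial one rests on 6 UMIs in 99 Control cells. Aplnr is known as a gene of capillaries rather than of arteries. In Dach1OE ECs with an Aplnr UMI, the Cre driver's own transcript, Dach1 was 179 CPM (173 to 185), and in those without 217 CPM (209 to 225). Control ECs, which have no Cre, differed in the same direction, with 4.52 CPM (3.68 to 5.50) and 6.61 CPM (5.16 to 8.36). The driver itself was at 554 CPM in Control and at 549 CPM in Dach1OE ECs. Dach1OE ECs without an Aplnr UMI were shallower, with a median of 2328 UMIs against 3233, so a missing UMI is not a missing transcript. Tamoxifen was given shortly after birth, so Aplnr at day 30 does not show in which cells the transgene was released.

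Outside the endothelium the highest Dach1 level was in blood cells. Haematopoietic cells had 19.1 CPM (17.3 to 21.1) in Control, above every other class beyond counting error, and 21.0 CPM (19.2 to 22.9) in Dach1OE. Within them Dach1 was uneven. It was 56.1 and 60.4 CPM (Control and Dach1OE) in pan-leukocyte cells, which had more markers of the pan-leukocyte list than of any other. Basophils or mast cells had 33.4 and 43.4 CPM, but megakaryocytes 12.7 and 18.5 CPM and erythroid cells 7.28 and 9.54 CPM. Myeloid progenitors had 7 UMIs in 18 Control cells and 18 UMIs in 29 Dach1OE cells. The log2 ratio was 0.13 (-0.06 to 0.33) over the haematopoietic class. By type it was 0.39 (0.01 to 0.78) in erythroid cells, 0.54 (-0.21 to 1.30) in megakaryocytes, 0.38 (-0.07 to 0.84) in basophils or mast cells and 0.11 (-0.29 to 0.50) in pan-leukocyte cells.

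In mural cells, the contractile and pericyte cells around vessels, Dach1 was 5.06 CPM (15 UMIs) in Control and 12.1 CPM (66 UMIs) in Dach1OE, a log2 ratio of 1.26 (0.44 to 2.18). Pericytes had 13 and 36 UMIs, or 11.5 and 13.4 CPM, and a ratio of 0.21 (-0.74 to 1.25). Smooth muscle cells had 2 UMIs or 1.24 CPM in Control and 21 UMIs or 8.92 CPM in Dach1OE, a ratio of 2.85 (0.81 to 5.98). The 10 endothelial markers together made up 613 and 651 CPM of mural UMIs, and 256 and 277 CPM without Esam, their highest, against 10185 and 10608 CPM in ECs. The mural ratio was 0.26 (-0.78 to 1.41) among cells under 10% mitochondrial UMIs, 2.18 (1.52 to 2.91) where classes were taken from clusters and 0.80 with equal weights of pericytes and smooth muscle cells. The part of endothelial transcripts in it was not tested.

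Smaller differences of the same sign were found in chondrocytes and stromal cells. Dach1 was 2.84 and 4.52 CPM in chondrocytes, a log2 ratio of 0.67 (0.35 to 0.99), and 3.90 and 5.30 CPM in stromal cells, a ratio of 0.44 (0.06 to 0.83). Among stromal cells it was 0.96 (0.30 to 1.63) in marrow stromal cells and 0.38 (-0.12 to 0.90) in osteoblasts, both under 2-fold. With equal weights of these and of osteocytes the class came to 1.18, which rests on 0 and 2 Dach1 UMIs in osteocytes. Endothelial markers were 145 and 149 CPM in chondrocytes and 161 and 142 CPM in stromal cells. Among fibroblasts there were 4 and 11 UMIs, too few to read. With classes from clusters, whose cells need not pass the marker gate, the ratio was 1.33 in chondrocytes and 1.25 in stromal cells.

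Dach2, the other Dachshund gene, lies at chrX:113297510-113836386 on the plus strand. It had 437 and 338 UMIs in the 6 classes together, and no class stood apart: in Control it lay between 1.69 CPM in mural cells and 4.16 CPM in fibroblasts, and no neighbours in that order differed beyond counting error. It was lower in Dach1OE in ECs (3.18 and 2.11 CPM, log2 ratio -0.59, -1.05 to -0.14), chondrocytes (3.27 and 2.04 CPM, -0.68, -1.05 to -0.31) and haematopoietic cells (3.59 and 2.41 CPM, -0.57, -1.10 to -0.06). None reached 2-fold over all cells of a class. In chondrocytes the ratio was -1.14 (-1.75 to -0.54) in cells with Y-linked UMIs and -0.33 (-0.91 to 0.24) in cells with Xist. In the haematopoietic class, erythroid cells had 45 and 28 UMIs, a ratio of -0.99 (-1.73 to -0.28). With equal weights of the haematopoietic types the class came to 0.11.

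The 4 EYA coactivators differed in their distribution, with Eya1 and Eya2 both highest in fibroblasts and next in stromal cells. Eya1 lies at chr1:14168954-14310235 on the minus strand, and was led by connective tissue. It was at 11.4 CPM in Control and at 6.38 CPM in Dach1OE fibroblasts and 9.27 and 5.34 CPM in stromal cells, which were not separable from fibroblasts in either library. Chondrocytes followed with 3.64 and 3.45 CPM, and the other classes were at 1.82 CPM or below. Among stromal cells, marrow stromal cells had 21.1 CPM (194 UMIs) in Control and 19.9 CPM (83 UMIs) in Dach1OE, whereas osteoblasts had 2.28 and 2.31 CPM.

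Eya2, at chr2:165595032-165771727 on the plus strand, is overlapped by the opposite-strand genes Gm28163 and Gm11460, and no source says if strand was used in counting. It was 36.0 and 21.6 CPM in fibroblasts and 28.2 and 13.7 CPM in stromal cells (Control and Dach1OE). Haematopoietic cells had 11.7 and 11.5 CPM, mural cells 10.1 and 6.43, chondrocytes 4.0 and 3.5 and ECs 2.72 and 2.41 CPM. The order of the classes was the same in both libraries. Inside the classes Eya2 was concentrated in a few types. These were tendon cells with 74.8 and 51.8 CPM, marrow stromal cells with 66.0 and 57.0 CPM, and basophils or mast cells with 44.7 and 47.3 CPM. By contrast interstitial fibroblasts had 8.06 and 9.45 CPM, osteoblasts 5.83 and 4.57 CPM and erythroid cells 2.04 and 1.45 CPM. Of basophils or mast cells 14.5% and 15% had an Eya2 UMI, and 4.68% (3.08 to 6.79) and 5.31% (3.71 to 7.34) did at 1000 UMIs per cell. The share in ECs at that depth was 0.259% and 0.231%.

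Eya3, at chr4:132638987-132724765 on the plus strand, was found in every class. Its 3′ end lies 0.132 kb from Xkr8, the nearest coding gene. Haematopoietic cells had 52.5 CPM (49.5 to 55.8) in Control and 54.3 CPM (51.3 to 57.3) in Dach1OE, and ECs 32.6 (30.7 to 34.6) and 32.2 CPM (30.3 to 34.2). The other classes lay between 18.6 and 21.8 CPM. The blood class as a whole thus stood above ECs, and ECs above the connective tissue classes, in both libraries and beyond counting error. Within the blood class, megakaryocytes had 76.9 and 81.2 CPM and erythroid cells 53.1 and 56.7 CPM, whereas pan-leukocyte cells had 47.7 and 36.8 CPM and basophils or mast cells 32.9 and 38.2 CPM, near the level of ECs. The log2 ratio in ECs was -0.02 (-0.14 to 0.11).

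Eya4, at chr10:23102963-23350786 on the minus strand, marked stromal and mural cells. It was 44.9 and 36.6 CPM in stromal cells, 39.5 and 50.7 CPM in mural cells and 25.4 and 14.7 CPM in fibroblasts, and at most 3.88 CPM in ECs, haematopoietic cells and chondrocytes. The highest class was stromal in Control, where it was not separable from mural, and mural in Dach1OE. Pericytes had 73.7 CPM (58.7 to 91.4) in Control and 91.2 CPM (80.2 to 103) in Dach1OE, and marrow stromal cells 70.0 and 70.7 CPM. Osteoblasts, at 31.0 and 30.0 CPM, expressed Eya4 while they had little Eya1 and Eya2. Smooth muscle cells had 18.0 and 8.92 CPM, from 29 and 21 UMIs, a log2 ratio of -1.01 (-1.90 to -0.15). Hence the pericyte and the smooth muscle part of the mural class differed in both libraries.

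**Figure D3:**
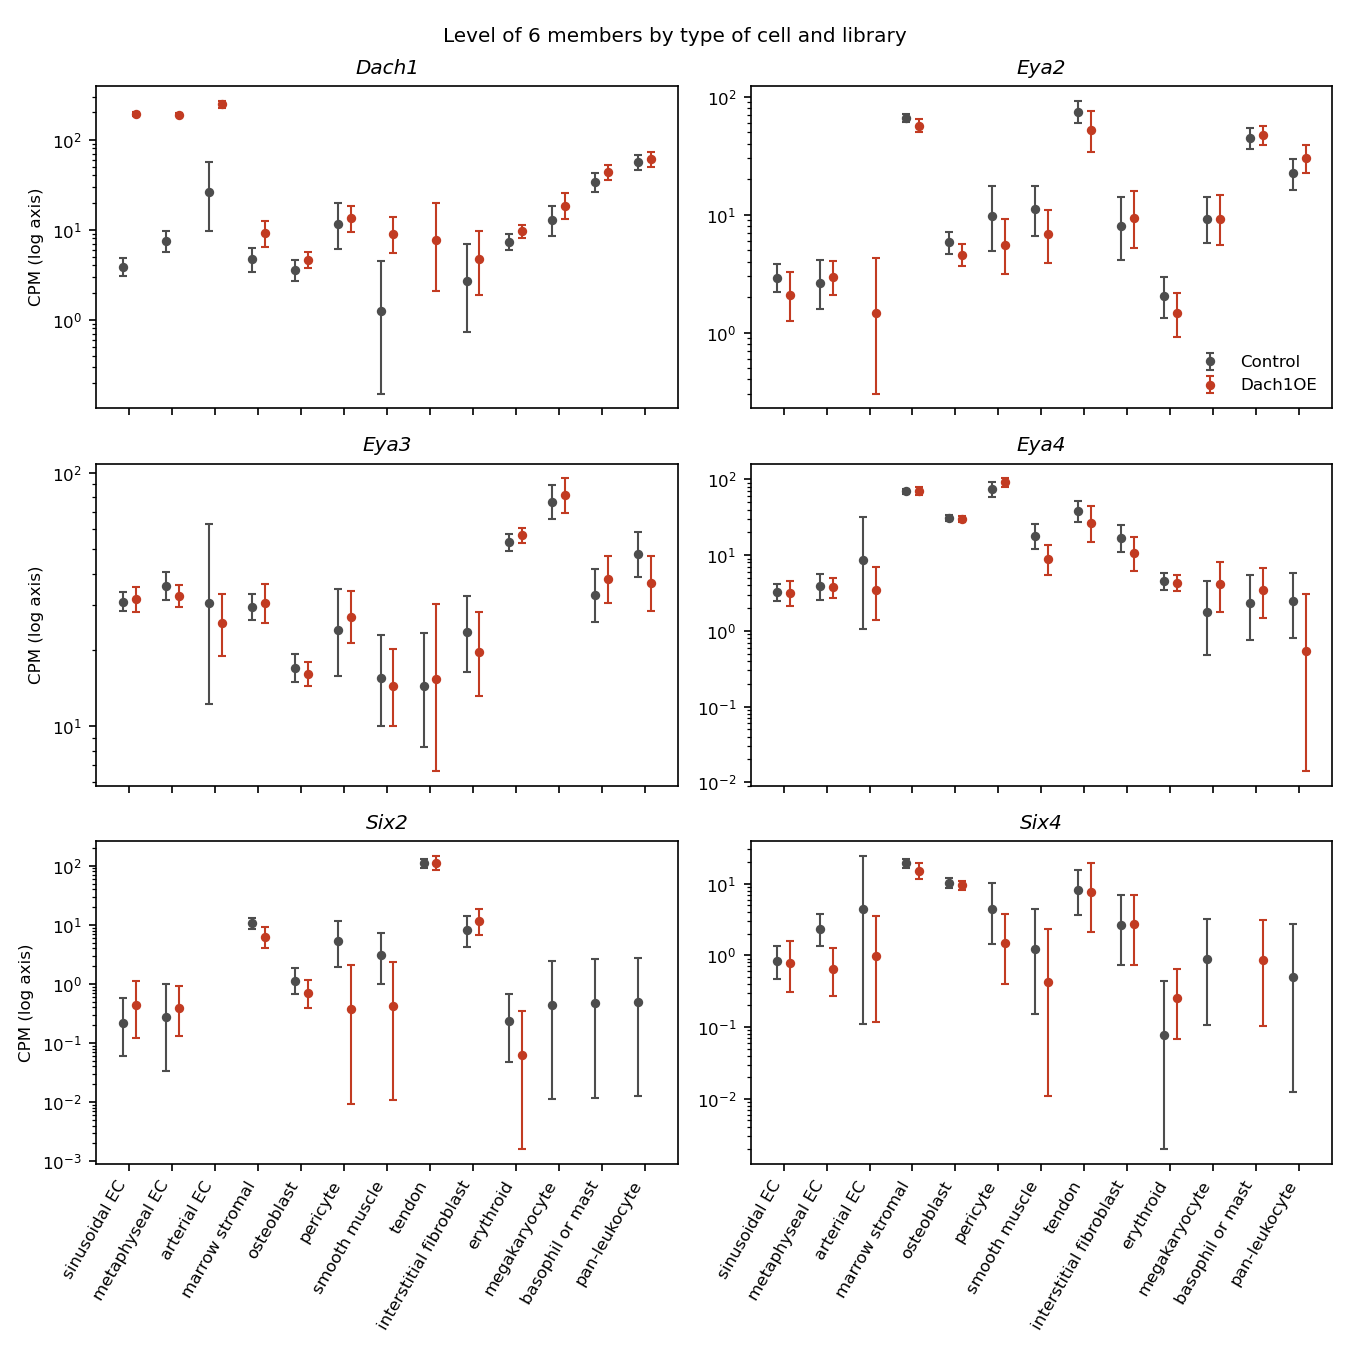
Level of 6 members (CPM, log axis) in 13 types of cells inside the classes, Control in grey and Dach1OE in red, with 95% Poisson intervals; types without a UMI have no point. Six2 peaks in tendon cells, Eya2 in tendon, marrow stromal and basophil or mast cells, Eya4 in pericytes and marrow stromal cells, and Dach1 in ECs of the Dach1OE library.

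Among the SIX-family factors, Six2 had the sharpest pattern. The gene is short, at chr17:85684277-85688274 on the minus strand, and its best known role is in nephron progenitors and in tendon and connective tissue. Fibroblasts had 51.1 CPM (42.8 to 60.5) in Control and 38.3 CPM (30.3 to 47.8) in Dach1OE. The next class in Control, stromal cells, had 4.62 CPM, and ECs had 0.275 and 0.391 CPM, from 9 and 13 UMIs. Within the fibroblast class, Six2 belonged to tendon cells. These had 123 UMIs or 111 CPM (92.1 to 132) in 247 Control cells and 59 UMIs or 113 CPM (86.2 to 146) in 125 Dach1OE cells, a log2 ratio of 0.03 (-0.44 to 0.49). Interstitial fibroblasts had 8.06 and 11.5 CPM, marrow stromal cells 10.5 and 6.23 CPM and osteoblasts 1.14 and 0.703 CPM. Of tendon cells 36.0% and 28.8% had a Six2 UMI, and 11.8% and 9.60% at 1000 UMIs per cell, against 0.0216% and 0.0210% of ECs at that depth.

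Six4, at chr12:73099609-73113456 on the minus strand, was broader. Stromal cells had 13.3 and 10.4 CPM, chondrocytes 6.37 and 6.45 CPM, fibroblasts 4.92 and 4.42 CPM, mural cells 2.36 and 1.10 CPM and ECs 1.25 and 0.722 CPM. Haematopoietic cells had 4 UMIs in Control and 7 in Dach1OE, or 0.194 and 0.296 CPM. Stromal cells were highest beyond counting error in both libraries, and haematopoietic cells lowest. Marrow stromal cells had 19.1 and 15.1 CPM and osteoblasts 10.2 and 9.44 CPM, so that Six4 was present in both stromal types. In ECs the log2 ratio was -0.79 (-1.59 to -0.03), from 41 and 24 UMIs.

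Six5, at chr7:19094594-19098549 on the plus strand, was found in all classes. It lay between 17.0 and 25.3 CPM in Control and between 19.8 and 28.5 CPM in Dach1OE, apart from haematopoietic cells with 7.42 and 5.66 CPM. In this it was the reverse of Eya3, for which haematopoietic cells were highest. Its nearest coding gene, Gm4969, is 0.497 kb from its 3′ end. Fibroblasts had 45 UMIs or 17.0 CPM in Control and 58 UMIs or 28.5 CPM in Dach1OE, a log2 ratio of 0.74 (0.15 to 1.34), with 0.91 (0.04 to 1.78) in tendon cells and 0.96 (0.08 to 1.90) in interstitial fibroblasts. The fibroblast ratio was 0.37 (-0.59 to 1.33) in cells with Xist. It was 1.78 (0.26 to 3.58), from 5 and 16 UMIs, in cells with Y-linked UMIs. In chondrocytes the ratio was -0.26 (-0.38 to -0.14).

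Between the libraries, 46 of the 54 pairs of a member and a class had at least 20 UMIs in all, the minimum for reading a ratio. A 2-fold or larger difference was found for 4, or 8.70%. These were Dach1 in ECs and mural cells, higher in Dach1OE, and Eya2 and Six2 in stromal cells, lower in Dach1OE. Dach1 gave 2 of the 4, and its rise in ECs was set by the design. Neither 8.70% nor the EC share below is therefore read as a trait of the family. In cells with Xist the stromal ratio was -0.83 for Eya2 and -0.24 (-1.33 to 0.80) for Six2, under 2-fold, and in cells with Y-linked UMIs -1.23 and -1.80. Under TMM scaling, another normalization of library size, Eya2 was -0.83 as well. By class they were 1 of 9 members in ECs, where 7.05% of all 16274 genes with as many UMIs differed 2-fold in either direction, 2 of 9 in stromal cells against 6.27% of all genes, and 1 of 5 in mural cells against 3.64%. There was none of 9 in chondrocytes, none of 7 in fibroblasts and none of 7 in haematopoietic cells, against 3.35%, 4.32% and 3.12% of all genes. For 21 of the 46 pairs the interval excluded 0, with 6 higher and 15 lower in Dach1OE. Over all genes with as many UMIs in the same classes, the interval lay above 0 for 13.3% and below 0 for 18.7% of the pairs, and such a share depends on how many UMIs a gene has. Aside from Dach1 the ECs held no member past 2-fold, and for Eya1, Eya2, Eya3, Eya4 and Six5 the interval there lay within 1 log2 unit of 0. The shares of the gated EC types differed too, with sinusoidal ECs at 53.7% in Control and 29.2% in Dach1OE, metaphyseal ECs at 23.7% and 37.2% and arterial ECs at 1.04% and 6.26%. The markers of these gates include Stab2, Flt4, Gpr182, Sox17 and Dll4. In Dach1OE ECs the paper reports lower Stab2, Flt4 and Gpr182 and higher Sox17 and Dll4. A shift in makeup and a shift in marker expression therefore cannot be told apart here. Within metaphyseal ECs Six4 had 17 and 8 UMIs, a log2 ratio of -1.88 (-3.30 to -0.59), and within sinusoidal ECs 15 and 7 UMIs, a ratio of -0.10 (-1.64 to 1.28). With equal weights for the EC types, Six4 was at -1.47 and Dach2 at -1.09, past 2-fold, and Dach1 at 4.25, with arterial values that rest on 1 Six4, 1 Dach2 and 6 Dach1 UMIs in Control.

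**Figure D4:**
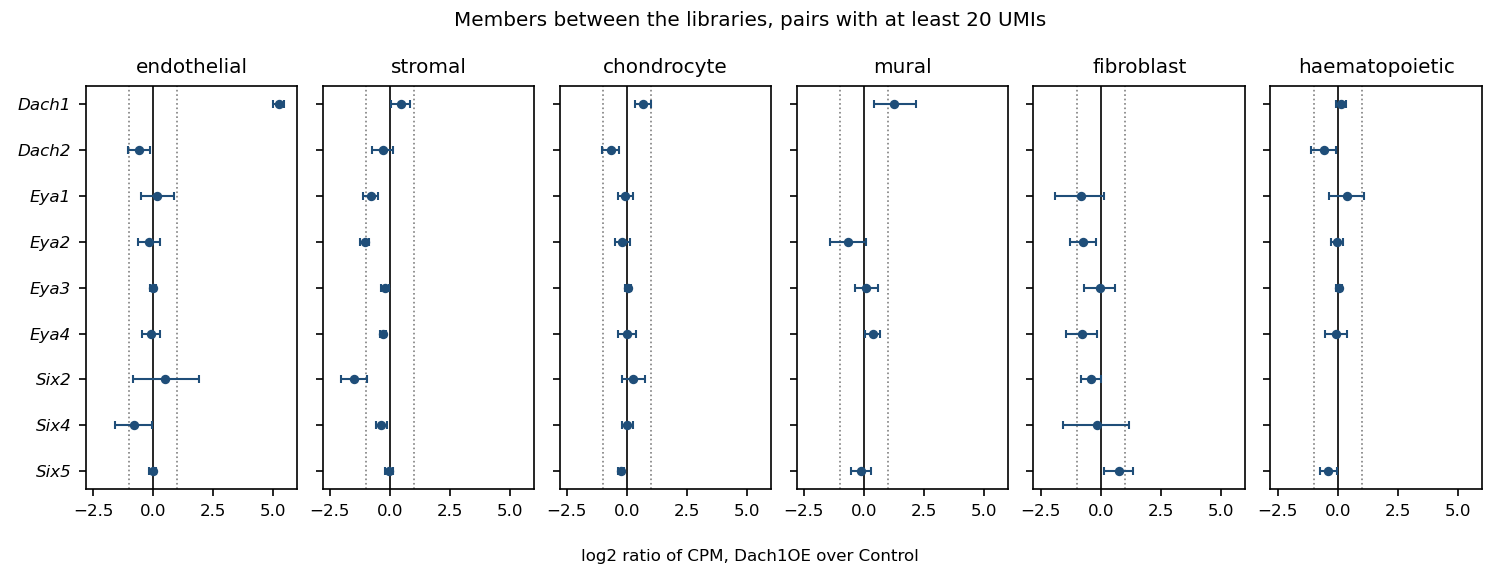
Log2 ratio of CPM, Dach1OE over Control, for the members with at least 20 UMIs in a class, with 95% intervals from counting; dotted lines mark 2-fold. Dach1 in ECs stands apart at 5.22, Eya2 (-1.05) and Six2 (-1.5) lie below the line in stromal cells, and most other intervals meet 0.

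In stromal cells 6 of the 9 members had an interval below 0, where this was so for 44.1% of all genes, and the gated makeup of this class differed between the libraries. Eya2 went from 709 to 343 UMIs (log2 ratio -1.05, -1.24 to -0.86), Six2 from 116 to 41 (-1.5, -2.05 to -0.97) and Eya1 from 233 to 134 (-0.80, -1.11 to -0.48). Marrow stromal cells, the Lepr and Adipoq cells in which all of these were high, made up 53.7% of the Control and 29.8% of the Dach1OE stromal class, and osteoblasts 42.5% and 65.7%. The markers of these gates include Lepr, Adipoq and Sp7. In Dach1OE stromal cells as a whole the paper reports higher Sp7 and lower regulators of adipogenesis, Pparg among them. A shift in makeup and a shift in marker expression therefore cannot be told apart here either. The median gene of the class had a ratio of -0.23, while those of the other classes lay between -0.02 and 0.05.

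Within marrow stromal cells the ratios were smaller. They were -0.08 (-0.47 to 0.30) for Eya1, -0.21 (-0.43 to 0.01) for Eya2, 0.01 (-0.19 to 0.21) for Eya4 and -0.34 (-0.78 to 0.08) for Six4. Six2 was lower within the type too, at -0.76 (-1.44 to -0.12), from 97 and 26 UMIs. In osteoblasts the ratio of Eya2 was -0.35 (-0.79 to 0.09) and that of Six2 -0.70 (-1.83 to 0.41). With equal weights for marrow stromal cells, osteoblasts and osteocytes in each library, the class ratio was -0.32 for Eya2 and -0.75 for Six2. Tendon cells likewise went from 41.0% to 25.1% of the fibroblast class, in which Six2 had a ratio of -0.42 (-0.84 to -0.00447) over the class and of 0.03 in tendon cells. By sex marker the class ratio of Six2 was 0.00 in cells with Xist and -2.12 (-3.69 to -0.83, from 28 and 6 UMIs) in cells with Y-linked UMIs.

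**Figure D5:**
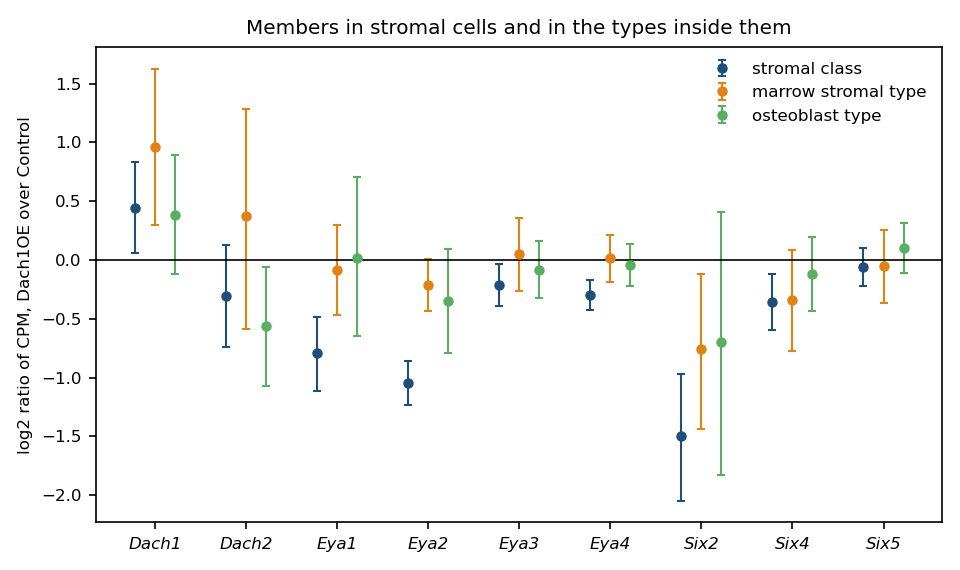
Log2 ratio of CPM, Dach1OE over Control, for the 9 members in the whole stromal class (blue), in marrow stromal cells (orange) and in osteoblasts (green), with 95% intervals. For Eya1 and Eya2 the intervals within both types meet 0 where that of the class does not, and Six2 stays below 0 in marrow stromal cells.

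For 5 of the 9 members the highest class was the same in both libraries: fibroblasts for Eya1, Eya2 and Six2, haematopoietic cells for Eya3 and stromal cells for Six4. For Eya1 the fibroblasts were not separable from stromal cells in either library. The highest class changed from haematopoietic cells to ECs for Dach1. For Eya4 it changed from stromal cells, which were not separable from mural cells in Control, to mural cells. It also changed for Dach2 and Six5, whose leading classes were not separable from the next in either library.

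Whether members that share a class were seen in the same cells was asked at a fixed depth. In marrow stromal cells thinned to 2000 UMIs, Eya4 was seen in 39 of 281 Control cells with an Eya2 UMI, or 13.9% (10.1 to 18.5), and in 12.9% (11.5 to 14.5) of those without. In Dach1OE these were 14.3% (8.39 to 22.2) and 13.1% (11.0 to 15.5). Six4 and Eya4 had the largest gap in Control. Eya4 was seen in 21.7% (13.8 to 31.6) of the cells with a Six4 UMI and in 12.7% (11.3 to 14.2) of the others, while in Dach1OE the shares were 13.8% (3.89 to 31.7) and 13.3% (11.2 to 15.5). In tendon cells of Control, Eya2 was seen in 6 of 42 cells with a Six2 UMI, or 14.3% (5.43 to 28.5), and in 9.78% (5.90 to 15) of the others. In tendon cells of Dach1OE it was in 0 of 17 cells with a Six2 UMI and in 7.69% (3.15 to 15.2) of the others, whereas Eya4 was in 3 of the 17, or 17.6% (3.8 to 43.4), and in 2.20% (0.267 to 7.71) of the others. For each pair compared in marrow stromal cells, tendon cells and osteoblasts the 2 intervals overlapped.

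Across the 12 points of 6 classes and 2 libraries, some members followed each other and others ran opposite. Pearson's r of log2(CPM + 1) was 0.80 between Six4 and Eya1, 0.78 between Six2 and Eya1, 0.73 between Eya1 and Eya2 and 0.70 between Six2 and Eya2, the 4 highest, and -0.90 between Six5 and Eya3, -0.77 between Six4 and Eya3, -0.66 between Six4 and Dach1 and -0.60 between Eya1 and Dach1, the 4 lowest. These points share libraries and depth, and are a description. For Dach1, the point of Dach1OE ECs, in which the gene was overexpressed, is at 194 CPM, and the next highest is at 21.0 CPM. That point therefore weighs heavily in each r of Dach1. Of 14889 genes with at least 200 UMIs, those most like each member were Vwf, Vwa3a and Car4 for Dach1 (r from 0.87 to 0.89) and Kcnb2, Plch1 and Grik1 for Dach2 (0.91 to 0.95). For the EYA genes they were Stk32b, Rnf149 and Slc6a2 for Eya1 (0.94 to 0.96), Epdr1, Notch2 and Dapk1 for Eya2 (0.92 to 0.97), Rfc3, Ptpn7 and Slc25a37 for Eya3 (0.991 to 0.995) and Ppfibp2, Gucy1a2 and Sh3gl2 for Eya4 (0.98 to 0.99). For the Six-family genes they were Sdk1, Lmx1b and Dchs2 for Six2 (0.97 to 0.98), Olfml3, Chrdl1 and Mab21l2 for Six4 (0.97 to 0.98) and Tmem5, Raph1 and Laptm4a for Six5 (0.95 to 0.96). Lmx1b is a regulator of limb connective tissue and kidney, Gucy1a2 encodes a subunit of the nitric oxide receptor of mural cells, and Slc25a37 is the mitochondrial iron carrier of erythroid cells. Vwf, an endothelial and platelet gene, is among the markers by which megakaryocytes were gated.

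Other genes of the network were taken from lists. Of 15 partners that are not members (other Six-family genes, PAX factors and cofactors), 6 had at least 20 UMIs in ECs and none of them differed 2-fold, as against 7.05% of all genes, with a median log2 ratio of 0.13 beside 0.03 for all genes. Six6 had no UMI in ECs, which allows up to 0.0917 CPM in Control. In stromal cells 9 were readable, with a median of -0.39 beside -0.23 for all genes, of which 6.27% were past 2-fold, and Pax1, a factor of the developing vertebral column, was the only one past 2-fold, with 6 UMIs in Control and 14 in Dach1OE (log2 ratio 1.22, -0.24 to 2.89). All 10 corepressor partners of DACH proteins were readable in both classes and none differed 2-fold, a count that is near the same shares of all genes. Their median ratio was -0.02 in ECs and -0.29 in stromal cells, beside 0.03 and -0.23.

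A further list holds genes known as targets of SIX-family, EYA or DACH proteins. Of its 16 genes, 14 were readable in ECs, with 3 higher and 1 lower by 2-fold, where 7.05% of all genes were past it in either direction, and a median of 0.43, beside 0.03 for all genes. Ccnd1, the G1 cyclin, was at 282 CPM in Control and at 766 CPM in Dach1OE ECs (log2 ratio 1.44, 1.41 to 1.47), and Igfbp5, a binding protein of insulin-like growth factors, 772 and 2150 CPM (1.48, 1.46 to 1.5). Ccna1, a cyclin known from the germ line, had 25 and 10 UMIs (-1.34, -2.57 to -0.24). The Ccnd1, Igfbp5 and Ccna1 ratios are over all ECs, whose gated types had other shares in each library. The part of makeup in them was not tested, and no ratio within a type is given. Myog, the myogenin of skeletal muscle, had 4 and 42 UMIs (3.37, 1.91 to 5.31). However, 39 of these 42 UMIs were in 1 cell, and 3 Dach1OE ECs had a Myog UMI against 4 Control ECs. Hence the Myog ratio rests on a single cell, and without it 2 of the list were higher.

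In stromal cells 13 of the targets were readable, with a median of -0.22 beside -0.23 for all genes, and 2 were lower by 2-fold, where 6.27% of all genes were past it in either direction. These were Cxcl12, the chemokine of marrow stromal cells (13539 and 5225 CPM, -1.37, -1.38 to -1.36), and Vegfc, a lymphangiogenic factor (89.4 and 36.5 CPM, -1.29, -1.41 to -1.18). Both stand in a class whose share of marrow stromal cells differed between the libraries, as given for Eya2. The part of makeup in the Cxcl12 and Vegfc ratios was not tested, and no ratio within a type is given for them. Counts of a list are a description of these libraries, and nothing particular to the lists is read from them.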

How the data were processed

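Deposited tables list, for each cell and gene above 0, counts of reads, of raw UMIs and of UMIs adjusted by recursive substitution error correction (RSEC), which the authors made per the file headers with version 1.11 of the BD Rhapsody WTA pipeline (the methods state another version) on GRCm38 with GENCODE annotation. Intronic reads were counted, cells were called by the refined method, and the use of strand is not stated. The RSEC-adjusted counts, with no normalization, were the measure. Following the methods, cells needed 500 to 6000 genes and a mitochondrial share under 25%. The Control library held 143986818 UMIs and the Dach1OE library 166999989.

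A cell took a class when it had UMIs of at least 3 of the 10 markers of one of its lists, and of at least 2 more than of any list of another class. Types were the list with most markers seen, and in ECs and chondrocytes the list with at least 3 UMIs and at least 2 times those of the next, the others being left unresolved. No doublets were removed from the main values (Scrublet in scanpy 1.11.5 called 6.53% of Control and 6.60% of Dach1OE cells). UMIs were summed per class and library. Intervals are exact Poisson for levels, exact conditional binomial for ratios and Clopper-Pearson for shares. A share or level of 0 allows up to 3 counts. A ratio was read at 20 UMIs or more in both libraries together and called at 2-fold. The ratio step was tested on simulated counts. Shares were thinned to 1000 UMIs per cell, and 2000 for pairs of genes. There was no test and no p-value.

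The members and all lists were chosen with earlier results of these data known. Named genes are all members, listed network genes past 2-fold in ECs or stromal cells or not seen, and the 3 genes most like each member. Coordinates are 1-based from GENCODE on GRCm38, and promoters from RefSeq. Alternatives were raw UMIs, stricter cell filters and gates, classes from 37 Leiden clusters on 2000 variable genes and 30 components, doublets left out, thinning, cells of either sex by Xist or 4 Y-linked genes, other UMI minimums and TMM scaling (edgeR 4.0.16 under R 4.3.3). Cells over 2000 UMIs and equal weights of types were added after seeing the data.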

Additional observations from a re-analysis of the deposited data

Results flagged for a closer look

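Dach1 in the cells that no marker gate placed in a class was 38.5 CPM (35.5 to 41.6, 630 UMIs in 2769 cells) in Dach1OE and 7.71 CPM (6.28 to 9.36, 102 UMIs in 2187 cells) in Control. It stood out because these cells enter no comparison of the classes. Their endothelial markers summed to 1861 CPM in Dach1OE and 1799 CPM in Control, and Scrublet called 32.4% and 35.9% of them doublets. The part of endothelial transcripts in the Dach1 value was not tested.

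Six2 in chondrocytes went opposite ways in cells of either sex. In cells with Xist it had 21 UMIs in Control and 41 in Dach1OE, a log2 ratio of 0.93 (0.14 to 1.77), and in cells with Y-linked UMIs 28 and 24 UMIs, a ratio of -0.95 (-1.80 to -0.11). The difference between the sexes was not tested, and each sex sets 1 mouse or group of cells against another, so that mouse and sex cannot be told apart. Over all chondrocytes the ratio was 0.26 (-0.21 to 0.74).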

How the results depend on the processing

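No paired analysis was possible because each group has 1 library, and for the same reason no replicate could be left out. The log2 ratio of Dach1 in ECs was 5.22 and lay between 4.72 (Xist-positive cells) and 5.83 (cells with a UMI of Y-linked genes) over the planned settings, was 4.25 with equal weights of types, a setting added after seeing the data, and was 5.46 at 1000 UMIs per cell. The number of member and class pairs past 2-fold was 4, and became 10 with classes from clusters, 9 with no filter on low counts, 8 with at least 10 UMIs over both libraries, 8 at 1000 UMIs per cell, 7 in cells with Y-linked UMIs and 2 in cells with Xist. The share of all genes past 2-fold was not taken under these settings, so these counts are not read as a trait of the members. Equal weights of types gave 4 as well, of which Dach1 in ECs was the only pair of the first 4, the others being Dach2 and Six4 in ECs and Dach1 in stromal cells, the last with 0 and 2 Dach1 UMIs in the osteocytes. TMM scaling, which shifts stromal ratios by 0.22, gave 3, since Eya2 in stromal cells became -0.83. It was -0.83 in cells with Xist too. Six2 in stromal cells was -0.24 in cells with Xist and -1.80 in those with Y-linked UMIs, and the cause was not tested. The number of members with the same highest class was 4 to 6 of 9. Of 972 levels recomputed under other settings, 809 stayed inside the counting interval of the main value. Six2 in ECs (9 and 13 UMIs) and Six4 in haematopoietic cells (4 and 7) are limited by depth.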

Other observations

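Skeletal muscle cells, in which this network is best known, were nearly absent, with 22 cells in Control and 21 in Dach1OE. Of these, 63.6% and 42.9% lay near the limit of the marker gate, and 9 and 14 took the same class from clusters. In Control they held 8 Eya4 UMIs in 4 cells, or 135 CPM (58.1 to 265), 3 Eya1 UMIs and 2 Six4 UMIs, and in Dach1OE 1 Eya4 UMI and 2 Six4 UMIs. The 29 Control and 38 Dach1OE Schwann cells held no UMI of Eya1, Eya2, Eya4 or Six2, which with 3 counts as the limit allows up to 70.0 CPM in Control and 53.3 CPM in Dach1OE.

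Myog was concentrated in single cells outside the endothelium too. In Dach1OE chondrocytes 34 of its 46 UMIs were in 1 cell, and in fibroblasts all 10 were in 1 cell, whereas Control held 7 in stromal cells and 1 in chondrocytes. The cells were chosen for a closer look after their values were seen.

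Within chondrocytes Six2 was 0.540 CPM (10 UMIs) in Control and 1.61 CPM (36 UMIs) in Dach1OE hypertrophic cells, a log2 ratio of 1.57 (0.53 to 2.75), and 2.56 and 2.07 CPM in resting or upper cells, a ratio of -0.30 (-0.92 to 0.33).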
